A study of Mus musculus with 6 samples.

Results

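The lens crystallins described here are 10 genes, Cryaa, Cryba1, Cryba2, Cryba4, Crybb1, Crybb3, Cryga, Crygb, Crygc and Crygd, of the 20659 genes that the array names. They were chosen by their strong variation between the 2 wild-type embryos, so the wild-type values below are a description of that choice. The study compared whole mouse embryos of day 12, 1 embryo per array and 2 per genotype, that were homozygous, heterozygous or wild type for the Stat3 allele labelled STAT3-K177K180R. Stat3 is a transcription factor activated downstream of cytokine receptors. The labels say that the 3 genotypes were littermates of a single womb, give no strain, sex or treatment, and do not say how the allele was made. Their extraction text speaks of tumour tissue and their genotype field adds the word mutant to wild type, and the titles were followed here. All 11 genes of a whole-embryo list, among them the embryonic globins and Afp of yolk sac and liver, were well above background on all 6 arrays.

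Crystallins are the abundant soluble proteins of the eye lens and give it its transparency and refractive power. The alpha crystallins are small heat shock proteins that hold unfolding proteins in solution, whereas the beta and gamma crystallins form a separate family of compact structural proteins. In the mouse the lens vesicle pinches off from the surface ectoderm at midgestation, and its posterior cells then elongate into primary fibre cells, which switch on the beta and gamma crystallin genes. Maf, Sox, Pax6 and Prox1 proteins bind crystallin promoters, and fibroblast growth factors from the retina drive fibre differentiation. The lens is a very small fraction of a whole embryo, and in bulk RNA fewer lens cells and less crystallin RNA per cell cannot be told apart.

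Because the 10 genes moved together, the 110 bases before the annotated start of 6 of them are shown, all 4 gamma crystallins with Cryaa and Crybb1 for comparison. The sequences are from RefSeq (GRCm38.p6), where all 10 members had a promoter window. Capitals mark the element TTTGTG, which Cryaa lacks, and, nearer the start, a TATA element, all on the gene's strand. The TATA element is TATAAA in Crybb1 and contains TATATA in the other 5.
Cryga (chr1:65103364-65103473, minus strand): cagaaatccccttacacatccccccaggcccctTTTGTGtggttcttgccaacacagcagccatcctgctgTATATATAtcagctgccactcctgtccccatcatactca
Crygb (chr1:65082291-65082400, minus strand): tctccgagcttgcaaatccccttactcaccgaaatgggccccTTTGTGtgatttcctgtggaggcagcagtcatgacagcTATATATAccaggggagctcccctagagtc
Crygc (chr1:65073533-65073642, minus strand): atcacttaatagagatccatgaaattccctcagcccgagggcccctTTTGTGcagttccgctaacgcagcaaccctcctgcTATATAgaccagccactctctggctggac
Crygd (chr1:65063441-65063550, minus strand): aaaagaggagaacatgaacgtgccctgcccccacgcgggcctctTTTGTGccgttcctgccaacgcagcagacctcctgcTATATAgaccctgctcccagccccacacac
Crybb1 (chr5:112255710-112255819, plus strand): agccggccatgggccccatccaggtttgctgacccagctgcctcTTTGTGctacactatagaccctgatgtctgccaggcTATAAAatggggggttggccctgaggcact
Cryaa (chr17:31677821-31677930, plus strand): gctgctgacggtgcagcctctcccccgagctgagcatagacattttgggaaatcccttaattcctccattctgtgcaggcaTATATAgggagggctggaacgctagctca

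The 4 gamma promoters share TTTGTG followed by TATATA at similar distances from the start. TTTGTG began 77, 68, 64 and 66 bases before the start in Cryga, Crygb, Crygc and Crygd, and 66 bases before it in Crybb1. TATATA on the gene's strand was present in 5 members, these 4 and Cryaa, and in 5.67% of all 32851 windows of 300 bases. TTTGTG on either strand was present in 6 members, the fifth and sixth being Crybb1 and Crybb3, and in 17.7% of windows. Both motifs were chosen after these sequences had been read.

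Of the other motifs searched, TATAAA on the gene's strand occurred in Cryba1, Cryba2 and Crybb1 and in 8.32% of all windows. TGCTGA, a core of the Maf recognition element, occurred on either strand in 8 of 10 members and in 19.5% of windows. The 2 members without it were Crygb and Crygd. ATTGT, a Sox site, occurred in 3 of 10 members and in 31% of windows. Aligned end to end over the 110 bases, the 6 pairs of gamma promoters were 56.5% to 69.5% identical, Crygc and Crygd the most. The 39 other pairs were 42.9% to 56.3% identical, and the 2 ranges did not overlap.

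The most marked feature of the crystallin signal was a single embryo, wild type 1, in which all 10 genes had their lowest level. Levels are array signals, or log2 signals relative to the 75th percentile of the same array, and probes are not compared with each other. That percentile was 1037 and 1067 in wild type 1 and 2, and 1187 and 1263 in heterozygous 1 and 2. In homozygous 1 and 2 it was 860 and 785, so unscaled signals of different embryos are not on the same scale. The alpha crystallin Cryaa, the small heat shock protein that is abundant in both lens epithelium and fibres, had a signal of 425.3 in wild type 1 and 2031 in wild type 2. It was 3237 and 1731 in heterozygous 1 and 2, and 2602 and 2435 in homozygous 1 and 2. Wild type 1 thus lay below the other 5 embryos, which spanned 1.18 on the scaled log2 scale, and after scaling wild type 2 was 4.64-fold above wild type 1.

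Cryba1, an acidic beta crystallin of the fibre cells, is the member measured most precisely, since its probe is printed 10 times on each array. Its spots had a median signal of 114.2 in wild type 1 (range 104.4 to 120.8) and 588.3 in wild type 2 (561.8 to 615.6). For heterozygous 1 and 2 the medians were 851.2 and 508.4, and for homozygous 1 and 2 they were 535.3 and 734.8. The SD of log2 signal over the 10 spots was 0.03 to 0.08 on each array, against a difference of 2.34 between the wild-type arrays. The spots of wild type 1 lay wholly below those of each other embryo. Repeated spots measure the printing and scanning of the array, not a second RNA preparation.

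The other acidic beta crystallins differed in how far they followed. Cryba2 had signals of 30.86 and 134.8 in wild type 1 and 2, 218.1 and 112.4 in heterozygous 1 and 2, and 124.1 and 131.2 in homozygous 1 and 2. Cryba4 had 107 and 183, then 261.7 and 168.7, then 171.1 and 158. After scaling, Cryba4 had the same order of embryos as Cryba2, but its wild-type difference of 1.66-fold was the smallest of the 10 and the only value below 2-fold.

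The basic beta crystallins behaved like Cryba2 in wild type. Crybb1, a fibre-cell gene, had signals of 51.69 and 174.5 in wild type 1 and 2, 286 and 141.8 in heterozygous 1 and 2, and 140.5 and 130.8 in homozygous 1 and 2. Crybb3 had 102.6 and 446.5, then 694.8 and 356.3, then 291.5 and 287.8. Crybb3 was the only member whose scaled homozygous levels both lay below wild type 2. A second Crybb1 probe gave a wild-type difference of 1.95 on the log2 scale, beside 1.71 for the brighter probe.

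The gamma crystallins are structural proteins of fibre cells and their genes lie in a cluster, so near-identical copies can share signal on a probe and their values are not independent. Cryga had signals of 92.88 and 492.5 in wild type 1 and 2, 780 and 368 in heterozygous 1 and 2, and 508.7 and 496.5 in homozygous 1 and 2. Crygc had 68.03 and 400.8, then 633.2 and 345.9, then 368 and 399.5. Crygd had 87.91 and 454.5, then 681 and 381.8, then 445.1 and 429.7. In each of these 3 genes wild type 1 stood apart and wild type 2 lay between the heterozygous embryos.

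Crygb had signals of 4.69 and 42.65 in wild type, 82.41 and 45.32 in heterozygous and 41 and 43.83 in homozygous embryos. Its level in wild type 1 is uncertain, because the spot did not clear background there. Measured against the lowest signal well above background on that array, wild type 2 was 4.30-fold higher on the processed signals. That reference is not a strict limit. With normexp, which adds an offset of 50 to every signal, the Crygb difference was 0.65 to 0.66 on the log2 scale, below 2-fold. The other 9 members were well above background in all 6 embryos.

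**Figure D1:**
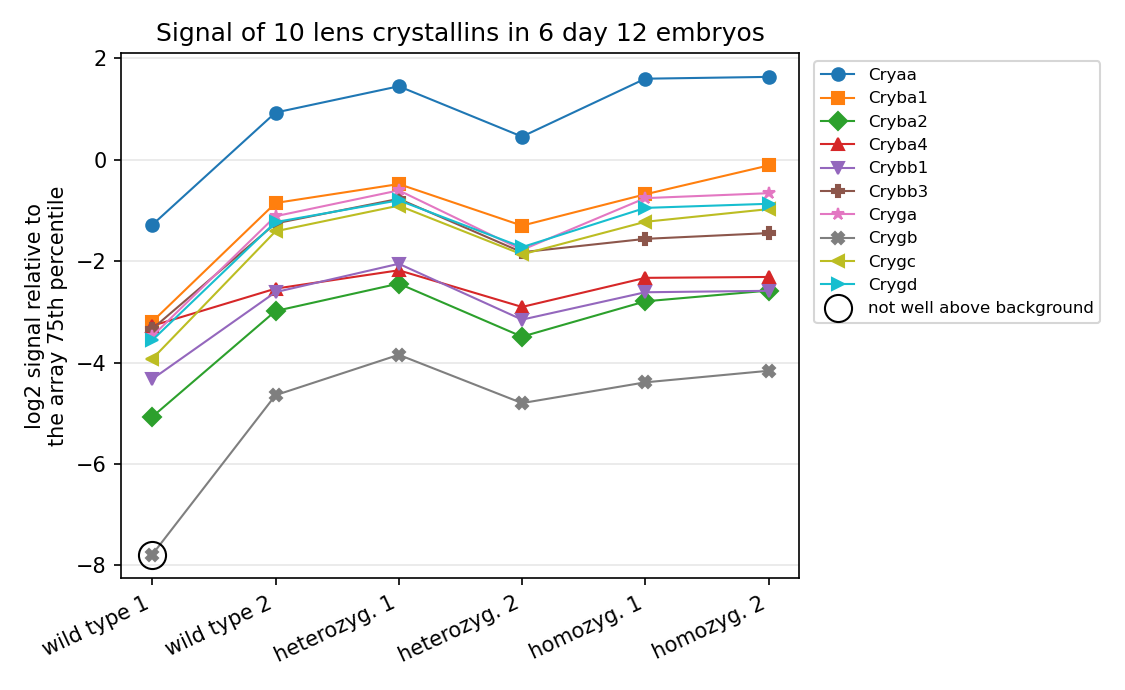
The plot gives the log2 signal of each of the 10 crystallins, relative to the 75th percentile of its array (y axis), in the 6 embryos (x axis), with 1 point per array and lines that only join points of a gene. All 10 genes are lowest in wild type 1 and second lowest in heterozygous 2, and the circled Crygb point was not well above background.

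In log2 terms wild type 2 exceeded wild type 1 by 0.73 (Cryba4) to 3.14 (Crygb), with a median of 2.27, or 4.83-fold. With Crygb in wild type 1 set to the lowest signal well above background, the median was 2.16 (4.47-fold) and the highest value 2.52 (Crygc). In 9 of 10 members the difference reached 2-fold, a size found in 0.321% of all genes, and in 8 of 10 with normexp. Since this difference chose the members, nothing is read from that contrast. All 14 probes of the members were lowest in wild type 1 after scaling, which held for 12.4% of all genes. This too is tied to the choice of members. The exception in pattern was the second Cryaa probe, whose signal of 12.06 to 19.25 lay near background. It was not well above background in either homozygous embryo, differed by 0.63 between the wild-type embryos, and was lower in heterozygous 1 than in heterozygous 2 by 0.14.

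The spread between the heterozygous embryos, which the choice of members did not use, ran through all 10 genes as well. Heterozygous 1 exceeded heterozygous 2 by 0.72 (Cryba4) to 1.17 (Cryga) on the log2 scale, with a median of 0.98, or 1.97-fold. The median absolute difference of all genes between these embryos was 0.17. The difference reached 2-fold in 4 members, Cryba2, Crybb1, Crybb3 and Cryga, compared with 0.415% of all genes. With 1 embryo on each side this comparison has no replicate check.

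After scaling, which all orders in this paragraph use, heterozygous 1 had the highest level of 8 members, and of 16.6% of all genes. Cryaa and Cryba1 were highest in homozygous 2. Heterozygous 2 was the second lowest embryo in all 10, below wild type 2. The combination of lowest in wild type 1 and second lowest in heterozygous 2 was found in 4.07% of all genes. Its wild-type part is tied to the choice of members, so nothing is read from that contrast. Wild type 2 lay between the heterozygous embryos in 10 of 10 members. Both homozygous embryos did so in 8 of 10. The share of all genes with these 2 orders was not computed, so nothing is read from the counts.

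The homozygous embryos were alike. Homozygous 2 exceeded homozygous 1 by 0.02 (Cryba4) to 0.57 (Cryba1), with a median of 0.11, beside a median absolute difference of 0.24 over all genes. In this pair the median crystallin thus differed less than the median gene, whereas in the heterozygous pair it differed more. Whether the spread differed between genotypes was not tested.

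**Figure D2:**
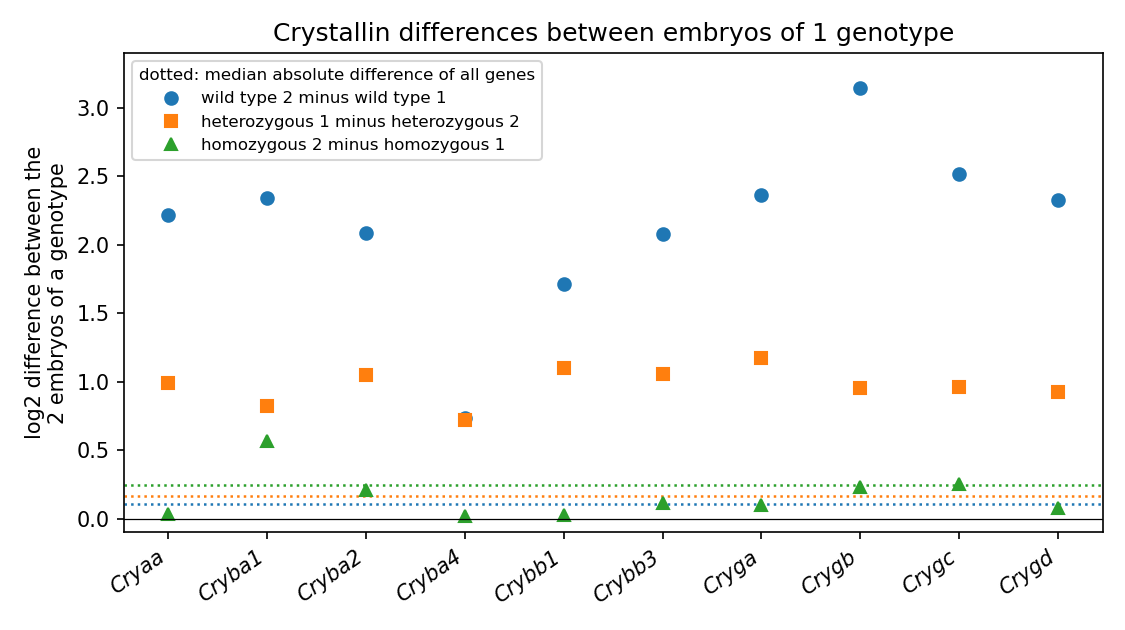
The plot gives, for each crystallin (x axis), the log2 difference between the 2 embryos of a genotype (y axis), with circles for wild type, squares for heterozygous and triangles for homozygous, and dotted lines at the median absolute difference of all genes. Circles reach 3.14, squares lie between 0.72 and 1.17, and triangles do not exceed 0.57.

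Over the 6 embryos the 45 pairs of members had Pearson correlations of 0.90 to 1.00 (median 0.97) and Spearman correlations of 0.54 to 1. These are descriptions over 6 arrays that share wild type 1 as an extreme point. Without wild type 1 the median Pearson correlation over 5 embryos was 0.90, the lowest being 0.43 for Cryaa and Crybb3. Without wild type 1 and heterozygous 2, the embryos farthest from the median, it was 0.75 over 4 embryos, and 2 of 45 pairs were below 0. The correlations thus weakened without these embryos and stayed above 0 in most pairs. After scaling, Cryaa had its highest levels in the homozygous embryos, and Crybb3 had its highest in heterozygous 1 and wild type 2.

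The homozygous against heterozygous comparison asks whether crystallin RNA differs between embryos with and without an unaltered Stat3 allele, and its arrays were not used to choose the members. No member passed at an adjusted p below 0.05 (limma, Benjamini-Hochberg over all genes, 2 embryos per genotype), while 23.9% of all genes did. Homozygous minus heterozygous was 0.28 at the median member on the log2 scale, against 0.07 at the median gene. The mean difference was positive in 9 members and negative in Crybb3. The values ran from -0.21 (Crybb3) to 0.66 (Cryaa), and limma's adjusted p from 0.503 to 0.997.

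Cryaa, with scaled log2 levels of 1.61 ± 0.03 in homozygous and 0.95 ± 0.70 in heterozygous embryos (SD, n = 2), was the only member whose embryos did not overlap, as in 64% of all genes. Its 95% interval for the difference was -1.01 to 2.34. Cryba4 had the narrowest interval, -0.53 to 0.97, so a change of 2-fold in either direction lay at or beyond its limits. For the other 9 members changes of 2-fold remained inside the interval. The residual spread of this fit includes the wild-type pair, which chose the members, and the SE was 0.31 to 0.93. Fitted to the 4 homozygous and heterozygous arrays alone, the SE was 0.26 to 0.38, and still no member passed (lowest limma adjusted p 0.216, Cryaa). The intervals of that fit contained a 2-fold increase in 6 members and a 2-fold decrease in 1, Crybb3. Without heterozygous 1 the median member difference was 0.79, and without heterozygous 2 it was -0.17, so the sign depended on which heterozygous embryo was used.

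Against wild type, the arrays that chose the members enter every value, and the differences are given as descriptions. Homozygous minus wild type was 0.59 (Cryba4) to 1.94 (Crygb), with a median of 1.53, and was positive in 10 of 10 members. No member passed in limma's fit (adjusted p 0.0973 to 0.397), whereas 28.9% of all genes did, and the unadjusted p was below 0.05 in 1 member, Cryaa. The homozygous embryos both lay above both wild-type embryos in 8 members, the exceptions being Crybb1 and Crybb3, while groups did not overlap in 69.6% of all genes. Without wild type 1 the median difference was 0.32, and without wild type 2 it was 2.71. Each of these fits leaves 1 wild-type array, whose spread cannot be measured, so only the difference is given.

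Heterozygous minus wild type was 0.37 (Cryba4) to 1.89 (Crygb), with a median of 1.12, and these 4 arrays came from the same scan. Limma gave every member an adjusted p of 0.9999, called 0% of all genes, and gave 551 genes an unadjusted p below 0.05, none of them a member. In no member were the groups apart, compared with 26.8% of all genes. Without wild type 1 the median difference was 0.0045, and without wild type 2 it was 2.26. At the median member, wild type 2 thus lay at the mean of the heterozygous embryos. The 3 comparisons share their groups and are not independent.

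**Figure D3:**
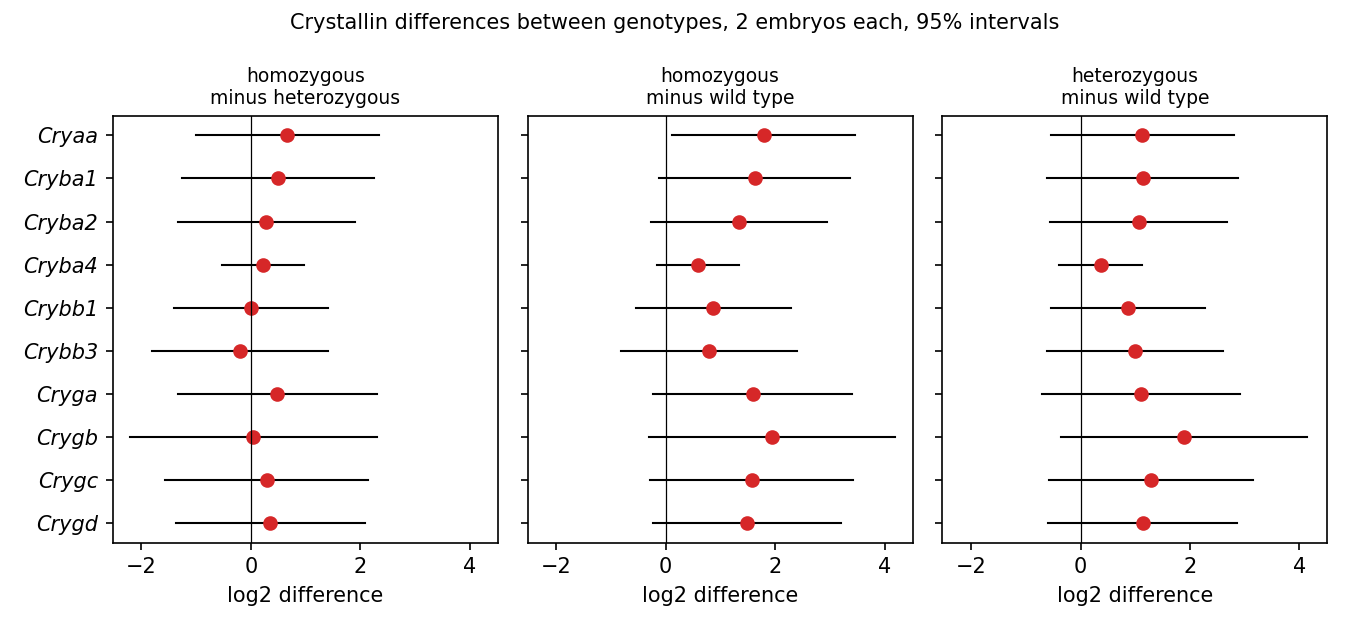
The 3 panels give the log2 difference between genotypes (x axis) for each crystallin (y axis), as points with 95% intervals from the limma fit to 2 embryos per genotype. All 10 intervals contain 0 in both panels with heterozygous embryos, and for homozygous minus wild type only that of Cryaa, 0.12 to 3.46, does not.

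The homozygous arrays were read in a different scan from the other 4, so scan and homozygous genotype cannot be told apart. Their negative-control signal was 37.0 and 41.9, against 18.7 to 19.7 on the wild-type and heterozygous arrays. Wild type 1 had the lowest of these values, which were close together on those 4 arrays. Its share of probes well above background was 76.1%, within the range of 70.7% to 77.3%, and it had no saturated spot and no outlier flag on a member's spot. Its median absolute difference from wild type 2 over all genes was 0.11, the smallest of the 3 within-genotype values.

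Of 6 further crystallins, 3 gamma crystallins followed the members. Cryge, a fibre-cell gamma crystallin, had signals of 166.8 and 1085 in wild type 1 and 2, 1862 and 947 in heterozygous 1 and 2, and 1485 and 1214 in homozygous 1 and 2. Crygf had 64.91 and 492.7, then 813.1 and 396.3, then 608.5 and 529.5. Crygn, a relative expressed in lens and retina, had a wild-type difference of 1.63, beside 2.66 for Cryge and 2.88 for Crygf. After scaling, these 3 genes, and Crygs, had wild type 1 and heterozygous 2 as their lowest embryos, as all members did.

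The other 3 did not show a wild-type difference of that size. Crygs, a gamma crystallin of later fibres and the adult lens, differed by 0.39 between the wild-type embryos. Cryab, the alpha crystallin that heart and skeletal muscle also express strongly, had signals of 2018 and 1826 in wild type, 3354 and 2776 in heterozygous and 3027 and 2734 in homozygous embryos. Cryab was higher in homozygous than in wild-type embryos by 0.94 ± 0.16 (SE, n = 2 per genotype, limma adjusted p 0.00994), and its wild-type difference was -0.19. The second Cryab probe gave 0.47 (adjusted p 0.10), and the call was also lost without wild type 1 (adjusted p 0.0524) or without wild type 2 (0.0877). Neither probe of Crybb2, a beta crystallin that rises after birth, was kept, since neither was well above background on both arrays of a genotype.

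By the root mean square difference of centred log2 profiles over the 6 embryos, the 8 named genes most like the members' median were Crygn, Cryge, Crygf, Mip, Sprr1b, Cyp2g1, Dmkn and Olig2. The difference was 0.26 for Crygn, 0.27 for Cryge, 0.29 for Crygf and 0.38 for Mip, with Pearson correlations of 0.99 or 1.00. Mip, or aquaporin 0, is the main water channel and membrane protein of fibre cells. It was the closest gene outside the crystallins, and its wild-type difference was 1.48.

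The other 4 neighbours were less alike, with root mean square differences of 0.47 to 0.51. Sprr1b, a precursor of the cornified envelope of epidermis, was well above background on 3 of its 6 arrays. Dmkn is a secreted protein of differentiating epidermis and Olig2 a transcription factor of the spinal cord and brain. Their wild-type differences were 0.73 for Dmkn and 0.87 for Olig2. Cyp2g1, an olfactory cytochrome P450, had 0.78. Among the members themselves the difference from the median profile was 0.06 (Crygd) to 0.62 (Cryba4).

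Other lens fibre genes did not show the members' wild-type difference, with Mip as the exception. Of 14 genes listed, 11 were kept, and their median difference between wild type 2 and wild type 1 was 0.17, with only Mip beyond 2-fold. Bfsp1 and Bfsp2, the beaded filament proteins of the fibre cytoskeleton, differed by 0.36 and 0.43. In homozygous against heterozygous embryos 1 of the 11 rose and 2 fell (limma adjusted p below 0.05), a share near the 23.9% of all genes. The klotho relative Lctl rose by 0.44, and the lens gap junction protein Gja3 and the lens galectin Grifin fell by 0.77 and 0.54, which turned to 0.014 and 0.20 with normexp and the 75th percentile. With normexp and quantile normalization they were -0.31 and -0.20, and Gja3 still passed. The calls of Lctl and Grifin held in 6 and 3 of 14 alternatives. Bfsp1 had 0.43 (adjusted p 0.12). The median over the 11 was 0.15.

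Of the transcription factors that act on lens genes, 0 reached a 2-fold difference between the wild-type embryos. All 18 were kept, the median was 0.10, the largest value was 0.50 (Pax6, the regulator of eye formation), and 7 had their lowest level in wild type 1. Wild type 1 lay below wild type 2 in 14 of 18, and the median over all genes was -0.01. For factors that other tissues also express, whole-embryo RNA does not show the level in the lens. In homozygous against heterozygous embryos 2 of 18 rose and 4 fell, beside 23.9% of all genes in either direction, and the median was 0.22. The 4 include Foxe3, which did not clear background in the homozygous embryos. The small Maf proteins Mafk and Mafg rose by 0.90 and 0.50. Mab21l1, needed for lens vesicle growth, fell by 0.82, Gata3, which acts in fibre cell cycle exit, by 0.79 and Six3, a regulator of Pax6 in lens induction, by 1.13. The calls of Mafg and Six3 held in 6 of 15 and 7 of 14 alternatives. Maf itself, which activates crystallin promoters, had -0.10 (adjusted p 0.66).

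Foxe3, the forkhead factor of lens epithelium, was not well above background in either homozygous embryo. Its measured log2 means were -8.05 in homozygous and -5.75 in heterozygous embryos (limma adjusted p 0.00133). The homozygous side of that difference did not clear background, so nothing is read from the call. Measured against the lowest signals well above background on the homozygous arrays, heterozygous Foxe3 was 1.31-fold higher on the processed signals. That reference is not a strict limit, since spots that did not clear background can be brighter. Its difference was 0.21 with normexp and the 75th percentile and -0.32 (adjusted p 0.0396) with normexp and quantile normalization, so its direction turned under the first of these. Six3, Mafg, Pax6 and Maf were singled out after their values had been seen.

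Of 18 genes of growth signals to the lens, 16 were kept and their median wild-type difference was 0.06. None rose and 4 fell in homozygous against heterozygous embryos, with a median of 0.12 over the 16, and the share that changed was near the 23.9% of all genes. These were Spry1, a feedback inhibitor of receptor tyrosine kinases, by 1.21, the receptors Fgfr1 and Fgfr3 by 0.98 and 0.62, and the ligand Bmp7, required for lens induction, by 0.72. The second brightest probe gave 1.78 for Fgfr1 and 0.24 for Fgfr3, so their probes disagreed in direction. The calls of Fgfr3 and Bmp7 held in 6 of 15 and 7 of 14 alternatives. These genes act in many tissues of the embryo, and whole-embryo RNA does not show where they changed.

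**Figure D4:**
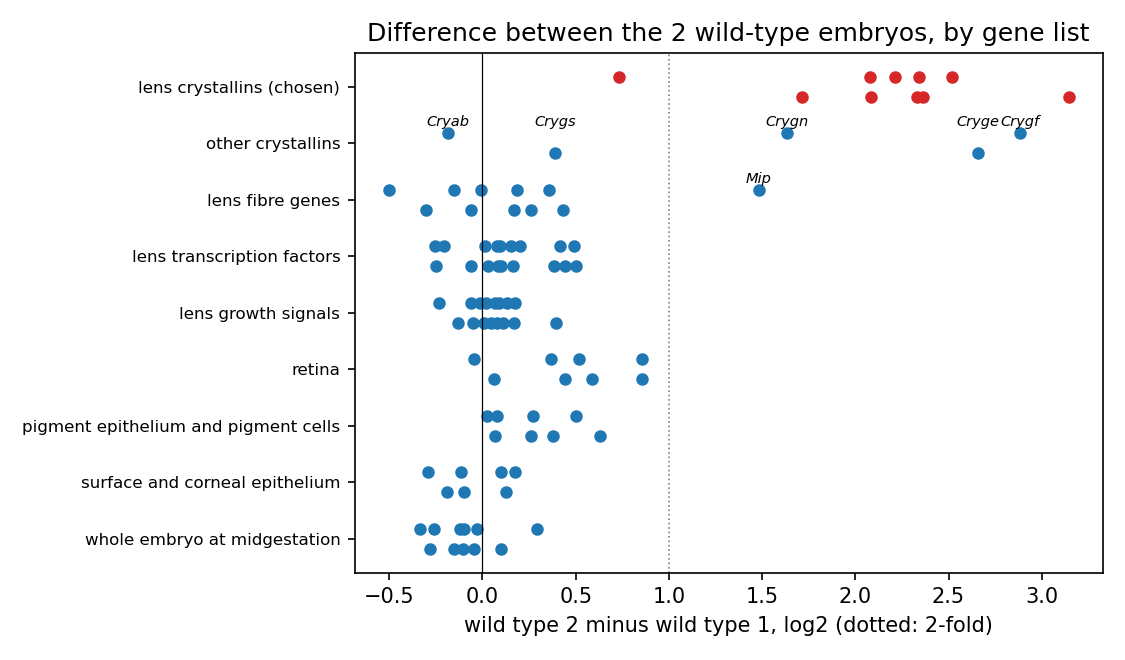
Each point is a gene, placed by its log2 difference between wild type 2 and wild type 1 (x axis) in the row of its list (y axis), with the chosen crystallins in red and a dotted line at 2-fold. Beyond 2-fold lie 9 of the 10 members, Crygn, Cryge, Crygf and Mip, and no gene of the other 6 lists.

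Most markers of retina and pigment cells differed in the same direction as the crystallins within the wild-type and heterozygous pairs. The pigment list joins pigment epithelium with other pigment cells. Of 8 kept retinal markers, 7 were lower both in wild type 1 than in wild type 2 and in heterozygous 2 than in heterozygous 1, and so were all 8 kept pigment cell markers. Both held in 28.6% of all genes, in 9 of 16 growth signal genes, in 8 of 18 lens transcription factors and in 3 of 11 lens fibre genes. Over all 6 embryos, wild type 1 and heterozygous 2 were the lowest pair in 4 of 8 retinal and 5 of 8 pigment cell markers. The same held in 3 of 11 lens fibre genes, which were Bfsp1, Bfsp2 and Mip. It held in 3 of 18 lens transcription factors, 3 of 16 growth signal genes and 2 of 11 whole-embryo genes. Among 7 epithelial markers it held in 0, and the share of all genes was not computed. The median wild-type difference was 0.48 for the retinal markers and 0.26 for the pigment cell markers. Tyr, Mitf and Mlana differed by only 0.02, 0.07 and 0.08, below the all-gene median absolute difference of 0.11. Tyrp1, Dct, Pmel, Slc45a2 and Oca2 lay above it. Rax, which specifies the retina, and Atoh7, which acts in ganglion cell formation, both had 0.85. Each was singled out after its values had been seen.

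The summed level of the 8 retinal markers, in units of the array's 75th percentile, was 3.28 and 4.55 in wild type, 4.19 and 3.61 in heterozygous and 6.59 and 5.94 in homozygous embryos. Lhx2, also a gene of forebrain and limb, makes up most of this sum, and it was the single retinal marker that rose in homozygous against heterozygous embryos, by 0.81. The summed level of the 8 pigment cell markers was 1.197 and 1.432 in wild type 1 and 2, then 1.49 and 1.29, then 1.56 and 1.62. Crx and Rcvrn of photoreceptors and Rpe65 and Best1 of pigment epithelium were not kept. The part of these tissues in the crystallin values was not tested.

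Markers of surface epithelium and of the whole embryo did not follow the crystallins. Of 7 kept epithelial markers 2 were lower in both wild type 1 and heterozygous 2 than in their partners, as were 2 of 11 whole-embryo genes. Their median wild-type differences were -0.10 and -0.11. The summed epithelial level was 17.0 and 16.4 in wild type, 20.2 and 17.3 in heterozygous and 18.03 and 23.57 in homozygous embryos. The corneal keratin Krt12 was not kept.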

How the data were processed

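Total RNA was amplified, labelled with Cy3 and hybridised to 1-colour Agilent arrays, per the labels. The scanner files deposited by the authors hold intensity values from Agilent Feature Extraction 11.0.1.1, per the file headers and the submitters' processing notes. They are background-subtracted within each array and not normalized between arrays. The authors also deposited log2 values, with a median of 6.73 on every array and an unstated normalization. Here they are an alternative.

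Each array held 43020 gene spots and 1377 controls. Controls and outlier spots were left out, spots of a probe averaged, and the array's 75th percentile subtracted from the log2 intensity. Low genes are thereby limited by background. A probe was kept where both embryos of some genotype gave a signal well above background, and a gene was its brightest kept probe. Names came from a RefSeq GRCm38.p6 table, which named 69.1% of 39429 probes. The array is annotated to mm9, so only promoter windows carry coordinates here.

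All 6 arrays were fitted to genotype with limma 3.58.1 in R 4.3.3 (3 residual degrees of freedom), tested on simulated data, with Benjamini-Hochberg adjustment over 24356 genes (24355 for heterozygous against wild type). Promoters were aligned with Biopython 1.88. Titles number the embryos 1 and 2 within a genotype. Members, lists and motifs were chosen with earlier results of these data known. Named genes were all members, 6 other crystallins, up to 4 of each other list by smallest p in homozygous against heterozygous embryos, and the 8 nearest profiles. Each array is a separate embryo per the labels, and 2 per genotype limit the precision.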

Additional observations from a re-analysis of the deposited data

How the results depend on the processing

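The count of members called stayed at 0 in homozygous against heterozygous and in heterozygous against wild type under all 15 alternatives, which included another background correction, quantile normalization, the authors' deposited log2 values, other filters, the second brightest probe (3 members), the 4 compared arrays alone and each array left out. In homozygous against wild type, fits without 1 wild-type array are given as differences only, since the spread of a single array cannot be measured. Among the other alternatives 1 member, Crygb, passed with normexp and the 75th percentile (limma adjusted p 0.0440). That setting called 9206 of 24356 genes there, and the wild-type arrays that chose the members enter it. Leaving out 1 array moved the median member difference from -0.17 to 0.79 for homozygous minus heterozygous and from 0.32 to 2.71 for homozygous minus wild type. A few gene values changed sign for homozygous minus heterozygous, and the cause was not tested. With normexp and the 75th percentile these were Gja3 (0.014), Grifin (0.20) and Foxe3 (0.21), and with the second brightest probe Fgfr1 (1.78) and Fgfr3 (0.24). For homozygous minus heterozygous, normexp scaled this way gave an all-gene median of 0.25 in place of 0.07, and 11778 called genes in place of 5810. The 4 compared arrays alone called 3293 genes there, and the second brightest probes called 833 of 4633, and 1050 of 4633 for homozygous against wild type (7044 before). Leaving out 1 array called 1451 to 7848 genes, 1846 to 8902 and 0 to 31 in the 3 comparisons. Homozygous against heterozygous calls held in 10 to 13 of 13 or 14 alternatives for Gja3, Mafk, Foxe3, Mab21l1, Gata3, Spry1, Lhx2 and Afp. For Foxe3, which did not clear background in the homozygous embryos, nothing is read from this. Calls held in 3 to 7 of 14 or 15 for Grifin, Lctl, Mafg, Six3, Fgfr3 and Bmp7. Fgfr1 passed in 14 of 15, but with the second brightest probe it passed in the opposite direction. The median difference between the wild-type embryos was 1.61 with normexp and 2.28 in the authors' values. With the replicate number as a replicate block 0 members were called in each comparison (lowest adjusted p 0.53, 0.12 and 0.9999). The labels do not say what the numbers mark. Deviations of same-numbered embryos correlated at 0.01 (wild type with heterozygous), -0.16 (wild type with homozygous) and 0.26 (heterozygous with homozygous).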
